A study of Homo sapiens with 12 samples.

Results

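The 44 genes described here encode proteins of the synaptic vesicle and of the machinery that fuses it with the plasma membrane. They were chosen by name, as a set of related function, with earlier results of these data known. All 44 were found among the 28278 gene symbols of the count table. They fall into 7 classes: 12 synaptotagmins, 4 core SNAREs, 4 SNARE regulators, 10 vesicle proteins, 6 RAB3 proteins and C2-domain effectors, 6 active zone scaffolds and 2 adaptors of vesicle endocytosis. Their levels were measured by bulk RNA-seq in motor neuron cultures made from WA09-Islet1-GFP, a wild-type human embryonic stem cell line whose GFP reports expression of Islet1, a transcription factor of motor neurons. The cultures were given cis-chlordane, an organochlorine pesticide, or a matching volume of its solvent DMSO for 16 hours and were then dissociated with trypsin and sorted by FACS on GFP. The labels give the dose as 10 µM, while the methods of the paper state a higher one. The 12 libraries form 4 groups of 3, as each condition gave a GFP-positive and a GFP-negative fraction. All 4 groups come from the same line, so no other genetic background was measured, and the GFP gate marks Islet1-expressing cells rather than every neuron.

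Neurotransmitter release begins when a vesicle loaded with transmitter docks at the active zone, a protein scaffold under the presynaptic membrane. VAMP on the vesicle and STX1A and SNAP25 on the plasma membrane then form the SNARE complex, complexins hold and prime it, and synaptotagmins bind calcium and trigger fusion. NSF and its adaptor SNAP proteins take the complex apart again, and the vesicle membrane is recovered by endocytosis. Motor neurons use this machinery to release acetylcholine at the neuromuscular junction. Several members have further uses, since some synaptotagmins do not bind calcium and act in trafficking of Golgi-derived or dense-core vesicles.

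Promoter sequences were matched for 33 of the 44 genes in a RefSeq table (GRCh38.p14), and the 250 bases upstream of the start given there were searched on both strands for 4 motifs. The sequences of 4 genes are shown because they carry the contrast that the counts turn on: SYT1, which rose, and its paralog SYT2, which fell, then SV2B, with the steepest rise, and RPH3A, a low-level gene that fell. Capitals mark a GC box (GGGCGG, the binding letters of SP factors, on either strand) or, in RPH3A, also the RE1 letters GGACAGCG, part of the element bound by the neuronal repressor REST. The windows lie at chr12:78864524-78864773 (SYT1, plus strand), chr1:202710455-202710704 (SYT2, minus strand), chr15:91099338-91099587 (SV2B, plus strand) and chr12:112791498-112791747 (RPH3A, plus strand). The start in that table can differ from that of the gene in GENCODE 44: RPH3A is placed there at chr12:112570380-112898881 (plus strand) and SYT1 at chr12:78863993-79452008 (plus strand), so both of these windows lie inside the gene and precede an internal start.
SYT1: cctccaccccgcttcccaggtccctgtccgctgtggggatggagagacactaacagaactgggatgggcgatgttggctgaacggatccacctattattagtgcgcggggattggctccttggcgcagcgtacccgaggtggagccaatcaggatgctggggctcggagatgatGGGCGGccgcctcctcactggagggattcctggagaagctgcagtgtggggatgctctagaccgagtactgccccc
SYT2: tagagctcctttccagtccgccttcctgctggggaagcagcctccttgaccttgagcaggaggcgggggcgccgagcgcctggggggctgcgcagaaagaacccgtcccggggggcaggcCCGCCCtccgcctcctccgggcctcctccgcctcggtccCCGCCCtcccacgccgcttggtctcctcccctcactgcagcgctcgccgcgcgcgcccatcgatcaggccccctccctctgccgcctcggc
SV2B: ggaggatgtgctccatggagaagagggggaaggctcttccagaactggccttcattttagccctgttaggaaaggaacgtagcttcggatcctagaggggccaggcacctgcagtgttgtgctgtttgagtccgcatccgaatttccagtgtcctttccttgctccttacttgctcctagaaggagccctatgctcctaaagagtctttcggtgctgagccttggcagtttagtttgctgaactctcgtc
RPH3A: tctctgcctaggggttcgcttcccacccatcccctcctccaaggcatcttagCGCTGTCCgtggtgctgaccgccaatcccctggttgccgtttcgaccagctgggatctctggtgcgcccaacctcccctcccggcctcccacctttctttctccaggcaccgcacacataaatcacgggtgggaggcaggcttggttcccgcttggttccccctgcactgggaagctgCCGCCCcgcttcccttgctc

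The GC box was present in 25 of the 33 windows (75.8%) and in 42.3% of all 27305 windows of the same length. The median GC content of the windows was 68.4% for the 33 genes and 58.0% for all. SYT1 and SYT2 both hold the GC box, while the printed SV2B window holds none of the letters searched. The cAMP response element TGACGTCA was found in SYN1 alone (3.03% against 1.77% of all windows). The RE1 letters were found in BSN and RPH3A (6.06% against 1.31%). The letters TGATGNAAT, the composite element of ATF4 and CHOP, were found in 0 of the 33 and in 0.916% of all. Such matches describe the windows and are not evidence that a factor binds there.

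The libraries held between 23414935 and 38347050 counts assigned to genes (median 31553596), and no library stood apart in depth. Values are given as CPM, the count of a gene relative to the total of its library, with TMM scaling over the 12 libraries, as mean ± SD of n = 3 where summarised. Fold changes come from edgeR's quasi-likelihood test on the libraries of each comparison, with p adjusted by Benjamini-Hochberg across every gene tested, and are given as log2 values with their standard error. A gene is said to have risen or fallen when its adjusted p was under 0.05, and to be called when the change was also at least 2-fold. The exposure was visible in each sort fraction: the 4 ER stress genes HSPA5, DDIT3, ATF3 and HERPUD1 were all called higher in treated GFP-positive and in treated GFP-negative cells. In bulk libraries, fewer cells of a type and less RNA per cell cannot be told apart. Replicates are numbered as biological replicates in the labels, and the study's methods define these as separate thaws of stored cells.

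In GFP-positive cells, single members of the 44 rose or fell with cis-chlordane. Their summed level was 6820 ± 425 CPM in control and 6439 ± 207 CPM in treated cells, and the groups overlapped. Within that sum, 3 genes were called higher (SV2B, SYT13 and SYT9) and 8 were called lower (SYT2, DOC2A, SYT12, RPH3A, SYT3, SYT17, SYT7 and RAB3A). Of all 15333 genes tested, 12.8% were called higher and 11.2% lower, so the 6.82% and 18.2% of the 44 lie below and above the background respectively. By adjusted p alone, 13 rose, 17 fell and 14 did not pass, that is 29.5% and 38.6% against 26.5% and 24.4% of all genes. Control and treated libraries did not overlap for 13 genes that were higher and 20 that were lower (background 26.9% and 30.6%). The median log2 fold change of the 44 genes was -0.04, and that of all genes was 0.03. All 8 genes called lower were synaptotagmins or RAB3 and C2-domain effectors, and no core SNARE, SNARE regulator, active zone scaffold or endocytic adaptor was called in either direction. Without control replicate 3 the count called higher was 6 rather than 3, with SYT1 (1.06), PCLO (1.02) and SNAP25 (1.03) past the limit. Scaling by library size alone moved the median of all genes to 0.14 and gave 5 higher and 6 lower, with SYT1 (1.03) and SNAP25 (1.09) gained and RAB3A (-0.98) and SYT7 (-0.99) lost. It also changed the split over all genes from 1959 higher and 1716 lower to 2315 and 1397.

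**Figure D1:**
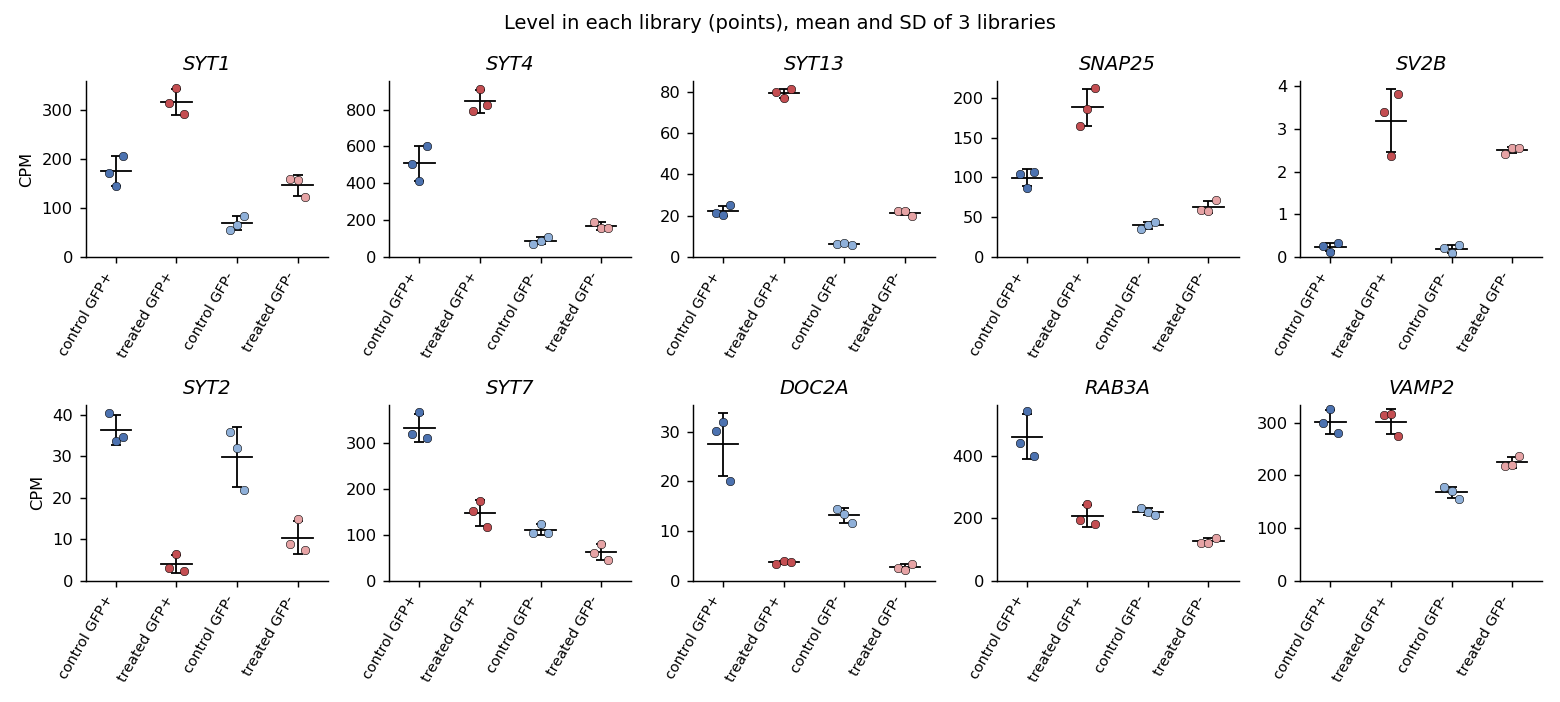
Level of 10 genes in CPM (vertical axis, from 0) in each of the 12 libraries, by group; points are libraries, horizontal lines the mean and bars the SD of 3. SYT13 rises from 20.2–25.2 to 76.7–81.0 CPM in GFP-positive cells while SYT2 falls from 33.8–40.6 to 2.36–6.47 CPM, and VAMP2 stays near 302 CPM.

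Synaptotagmins, the calcium sensors and their non-sensing relatives, moved apart most widely: of 12, 5 rose, 5 fell and 2 did not pass. SYT1, the fast calcium sensor of synchronous release in forebrain neurons, was at 173, 145 and 206 CPM in control and 315, 345 and 292 CPM in treated GFP-positive cells. Every treated library was above every control library, and the log2 fold change was 0.93 ± 0.16 (adjusted p = 1.23e-05), or 1.90-fold, which lies just under the 2-fold limit. SYT2, its close paralog and the main fast sensor at the neuromuscular junction and in the hindbrain, was at 40.6, 33.8 and 34.7 CPM in control and 3.12, 6.47 and 2.36 CPM in treated cells. Its groups were far apart, with a log2 fold change of -3.13 ± 0.26 (adjusted p = 2.12e-12), the largest decrease among the 44.

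The balance of these paralogs shifted in every library. Per kilobase of transcript, the ratio of SYT1 to SYT2 was 6.91, 6.97 and 9.65 in control GFP-positive cells and 164, 86.6 and 201 in treated ones. In GFP-negative cells it was 2.54, 3.32 and 6.24 in control and 29.5, 17.2 and 26.3 in treated cells. Of the exonic bases of SYT2, 27.0% overlap exons of PPP1R12B on the opposite strand, and PPP1R12B itself stood at 36.3 CPM in control and 36.6 CPM in treated GFP-positive cells. The strand setting of the counting is not given in the sources used here, so part of the low SYT2 level could belong to that gene.

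SYT13, an atypical synaptotagmin that does not bind calcium, had the largest increase of the class. It was at 21.3, 20.2 and 25.2 CPM in control and 79.6, 76.7 and 81.0 CPM in treated GFP-positive cells, a log2 fold change of 1.90 ± 0.18 (adjusted p = 3.89e-11). SYT9, a sensor used in some brain regions and in endocrine cells, was low and rose from 3.58, 5.56 and 4.48 CPM to 11.1, 11.1 and 10.7 CPM (log2 fold change 1.33 ± 0.23, adjusted p = 7.60e-06). Both sets of treated libraries lay above all controls.

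SYT4, which is found on dense-core and trafficking vesicles, was among the most abundant synaptotagmins, at 506, 413 and 605 CPM in control and 795, 914 and 828 CPM in treated GFP-positive cells. It rose by 0.80 ± 0.16 on the log2 scale (adjusted p = 1.00e-04), with no overlap between groups. SYT11, a non-calcium-binding member linked to vesicle and lysosomal trafficking, was at 643, 840 and 823 CPM in control and 1028, 956 and 1181 CPM in treated cells. Its increase was smaller, at 0.53 ± 0.16 (adjusted p = 0.00650), again without overlap.

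The decreases in the class fell on SYT7, SYT3, SYT17 and SYT12 besides SYT2. SYT7, a slow high-affinity sensor that serves asynchronous release and vesicle replenishment, dropped from 319, 367 and 311 CPM to 152, 174 and 116 CPM (log2 fold change -1.10 ± 0.17, adjusted p = 9.55e-07). Without treated replicate 3 the value was -0.96, under the 2-fold limit. SYT3, another high-affinity sensor, had means of 51.7 ± 9.98 and 19.5 ± 4.95 CPM, a log2 fold change of -1.34 ± 0.20. SYT17, an atypical member of the secretory pathway, changed by -1.17 ± 0.21, and SYT12, which does not bind calcium, by -2.11 ± 0.38 from a control mean of only 2.59 CPM. SYT5 and SYT6 did not pass, with log2 fold changes of 0.13 ± 0.17 and 0.26 ± 0.21.

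As shares of the summed CPM per kilobase of the 12 synaptotagmins, SYT11 and SYT4 led in both conditions. In GFP-positive cells the share of SYT4 was 30.6% ± 4.62 in control and 38.4% ± 2.04 in treated cells, and that of SYT11 was 35.2% ± 3.86 and 36.4% ± 3.95. The share of SYT7 dropped from 11.0% ± 1.39 to 3.65% ± 0.716, and that of SYT2 from 1.14% ± 0.182 to 0.0928% ± 0.0495. SYT1 accounted for 8.82% ± 1.19 in control and 12.1% ± 0.974 in treated cells.

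The core SNAREs did not move together. SNAP25, the plasma membrane SNARE that is cleaved by botulinum toxin A, was at 104, 87.2 and 107 CPM in control and 165, 186 and 212 CPM in treated GFP-positive cells, and rose by 0.99 ± 0.16 (adjusted p = 4.82e-06). That is 1.98-fold with no overlap, just under the limit. VAMP2, the main vesicle SNARE, was at 300.0, 325 and 280.1 CPM in control and 315, 317 and 275 CPM in treated cells. Its groups overlapped, and the log2 fold change was 0.07 ± 0.15 (adjusted p = 0.734). STX1A, the partner of SNAP25 on the plasma membrane, was at 122, 122 and 104 CPM in control and 84.7, 74.5 and 78.4 CPM in treated cells. It fell by 0.48 on the log2 scale, with a standard error of 0.16 (adjusted p = 0.0118) and no overlap. VAMP1, the vesicle SNARE prominent in motor neurons and spinal cord, fell by the same 0.48, with a standard error of 0.20 (adjusted p = 0.0457). The ratio of VAMP2 to VAMP1 per kilobase was 20.5, 27.0 and 19.5 in control and 29.1, 41.6 and 28.2 in treated GFP-positive cells.

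Among the SNARE regulators, CPLX1 and CPLX2 differed in response. CPLX1, a complexin that clamps and primes the SNARE complex, was at 258, 318 and 233 CPM in control and 155, 165 and 136 CPM in treated GFP-positive cells, a change of -0.76 ± 0.16 (adjusted p = 0.000173). CPLX2 was at 382 ± 40.7 and 402 ± 30.1 CPM, with a log2 fold change of 0.14 ± 0.16 that did not pass. NAPB, the neuronal SNAP adaptor of NSF, rose by 0.42 ± 0.16 (adjusted p = 0.0232), a value that was 0.11 with the GC trend removed. NSF itself was listed at means of 2.70 and 2.93 CPM. The table also holds NSFP1, a near-identical copy with which reads could be shared, so the level of NSF is uncertain.

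Of the 10 vesicle proteins, 2 rose, 4 fell and 4 did not pass. SYP, synaptophysin, an abundant vesicle membrane protein, was at 524, 617 and 491 CPM in control and 557, 548 and 553 CPM in treated GFP-positive cells. These groups overlapped, and the log2 fold change was 0.09 ± 0.16 (adjusted p = 0.652). SYN1, a synapsin that tethers vesicles in the reserve pool, was at 208, 286 and 220 CPM in control and 177, 185 and 136 CPM in treated cells, a change of -0.45 ± 0.17 (adjusted p = 0.0219) that was -0.04 with the GC trend removed. SYN3 fell by 0.50 with a standard error of 0.18, and SYN2 had a value of -0.40 ± 0.20 that did not pass (adjusted p = 0.0982). DNAJC5, the vesicle chaperone CSPα that keeps SNAP25 folded, was at 274, 378 and 312 CPM in control and 187, 199 and 184 CPM in treated cells. It fell by 0.69 with a standard error of 0.16 (adjusted p = 0.000467), and all treated libraries were below all controls. The synaptogyrins SYNGR1 and SYNGR3, relatives of synaptophysin, had values of -0.17 ± 0.16 and 0.33 ± 0.18 that did not pass.

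The 3 SV2 proteins, vesicle glycoproteins that act in priming and serve as botulinum toxin receptors, went different ways. SV2A was at 484, 530 and 532 CPM in control and 328, 322 and 263 CPM in treated GFP-positive cells, and fell by 0.69 with a standard error of 0.16 (adjusted p = 0.000369). SV2C was low, at 6.26, 6.57 and 7.39 CPM in control and 11.3, 9.76 and 9.74 CPM in treated cells, and rose by 0.67 ± 0.21 (adjusted p = 0.00829). SV2B was at 0.261, 0.116 and 0.320 CPM in control and 3.39, 2.38 and 3.81 CPM in treated cells. Its log2 fold change of 3.85 ± 0.42 (adjusted p = 2.03e-09) was the largest of the 44, but it rests on 4 to 10 reads per control library and 83 to 144 reads per treated library. SV2A still made up 98.3% ± 0.250 of the summed SV2 CPM per kilobase in treated GFP-positive cells, against 99.5% ± 0.0364 in controls, and SV2B made up 0.367% ± 0.121.

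RAB3 GTPases mark the vesicle for docking, and the effectors RPH3A, DOC2A and DOC2B bind calcium through C2 domains. RAB3A, the main neuronal RAB3, was at 442, 543 and 401 CPM in control and 194, 247 and 181 CPM in treated GFP-positive cells. It fell by 1.09 on the log2 scale, with a standard error of 0.17 (adjusted p = 1.31e-06), and the groups did not overlap. Without control replicate 2 the value was -0.96, under the 2-fold limit. Exons of MPV17L2 on the opposite strand cover 9.24% of its exonic bases, and MPV17L2 moved from 59.2 to 27.4 CPM. Its paralogs differed: RAB3B rose by 0.46 ± 0.17 (adjusted p = 0.0218), and RAB3C had a value of -0.05 ± 0.17 that did not pass.

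DOC2A, a high-affinity sensor of spontaneous and asynchronous release, had the largest decrease of the class. It was at 30.2, 32.03 and 20.1 CPM in control and 3.30, 3.86 and 3.84 CPM in treated GFP-positive cells, a log2 fold change of -2.83 ± 0.22 (adjusted p = 7.67e-13). INO80E on the opposite strand shares 4.40% of its exonic bases. RPH3A, rabphilin, was at 1.34, 2.26 and 2.18 CPM in control and 0.420, 0.544 and 0.371 CPM in treated cells, a change of -2.04 ± 0.40 (adjusted p = 6.23e-05). DOC2B was at 1.01, 3.27 and 0.608 CPM in control and 2.67, 1.55 and 1.32 CPM in treated cells, and its groups overlapped (log2 fold change 0.23 ± 0.42). Without control replicate 2, its highest control library, the value was 1.25 and called.

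Active zone scaffolds divided into 3 that rose, 2 that fell and 1 that did not pass, with every change under 2-fold. Without control replicate 1, BSN passed that limit at -1.01. BSN, bassoon, was at 163, 235 and 236 CPM in control and 127, 91.2 and 118 CPM in treated GFP-positive cells, a change of -0.85 ± 0.17 (adjusted p = 9.09e-05) without overlap. PCLO, piccolo, the close structural relative of bassoon, rose by 0.81 ± 0.19 (adjusted p = 0.000745) from 20.6 ± 5.16 to 34.4 ± 5.01 CPM. RIMS1, which tethers calcium channels to the release site, was at 13.5, 12.7 and 13.9 CPM in control and 15.5, 12.4 and 9.59 CPM in treated cells, and its groups overlapped (log2 fold change -0.03 ± 0.21). RIMS2 and ERC2, another RIM and a scaffold that binds it, rose by 0.60 ± 0.19 and 0.70 ± 0.19. UNC13B, a priming factor of the Munc13 family, fell by 0.56 with a standard error of 0.15 (adjusted p = 0.00261). The endocytic adaptors did not pass: SNAP91, which recruits clathrin, was at 100.3, 105 and 126 CPM in control and 92.0, 94.5 and 71.1 CPM in treated cells (log2 fold change -0.29 ± 0.16, no overlap), and AMPH, amphiphysin, had a value of -0.22 ± 0.17.

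**Figure D2:**
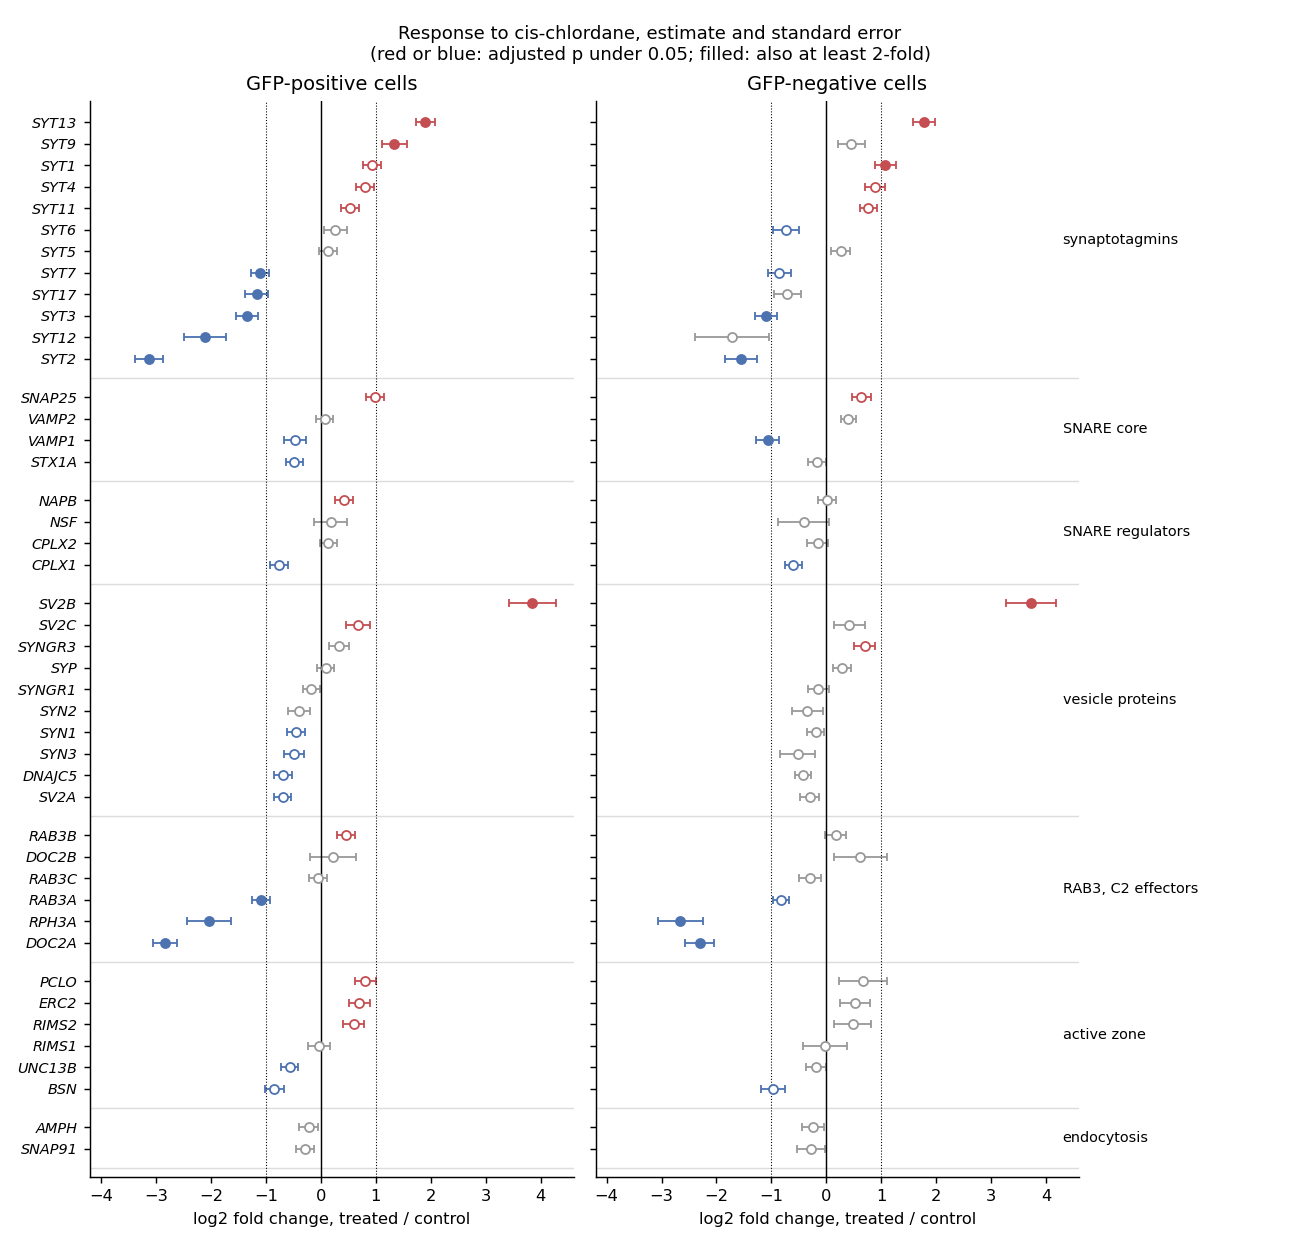
Log2 fold change of treated against control cells (horizontal axis) for the 44 genes by class, in GFP-positive cells (left) and GFP-negative cells (right); points are estimates from 3 against 3 libraries and bars are standard errors. Filled points passed the adjusted p and the 2-fold limit, and the synaptotagmins span the axis from SYT2 at -3.13 to SYT13 at 1.90 in GFP-positive cells.

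Per kilobase of transcript, the order of the genes in control GFP-positive cells began with RAB3A at 309 ± 48.8 CPM per kb, followed by SYP at 225 ± 26.9, SYT11 at 148 ± 21.1, VAMP2 at 142 ± 10.7 and SYT4 at 129 ± 24.4. Among the last 3 of these, neighbours differed by less than the larger of their SDs. In treated cells the first was SYP at 228 ± 1.98 CPM per kb, then SYT4 at 215 ± 15.5, SYT11 at 204 ± 22.2, VAMP2 at 142 ± 11.2 and RAB3A at 139 ± 23.2. SNAP25 moved from position 13 to 6, and SYT7 from 14 to 18. At the low end, SV2B, DOC2B, RPH3A, SV2C, NSF and SYT12 were under 1 CPM per kb in both conditions.

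In GFP-negative cells, 3 genes were called higher and 5 lower, against a background of 8.59% and 9.75% of 15513 genes. By adjusted p alone, 7 rose and 10 fell (background 15.3% and 16.2%). SV2B rose by 3.72 ± 0.45 and SYT13 by 1.78 ± 0.19, close to their values in GFP-positive cells. SYT1 was at 56.0, 65.8 and 84.1 CPM in control and 160, 157 and 122 CPM in treated GFP-negative cells, and its log2 fold change of 1.07 ± 0.19 (adjusted p = 0.00272) passed the 2-fold limit here. It did not without control replicate 1 (0.95), without treated replicate 1 (0.99) or with the GC trend removed (0.89). Among the genes called, the largest decreases were in RPH3A (-2.66 ± 0.41), DOC2A (-2.31 ± 0.26) and SYT2 (-1.55 ± 0.30), followed by SYT3 (-1.10 ± 0.20) and VAMP1 (-1.07 ± 0.21). SYT12 had a value of -1.71 ± 0.67 that did not pass (adjusted p = 0.0777). SYT3 lost its call without control replicate 2 and with the GC trend removed. In the latter fit 2 of the 44 were called higher and 4 lower, beside 1248 and 1372 of 15513 genes. Without control replicate 3, 5 genes were called higher, with SYT4 (1.05) and PCLO (1.19) added, and SYT12 was called lower at -2.20. The sign of the estimate was the same in both sort fractions for 41 of the 44 genes (93.2%) and for 78.7% of the 14855 genes tested in both. Of the 44, 6 were called in both fractions, beside 1864 of those 14855 genes. These fractions have no library in common, but libraries of the same condition and replicate number deviated together and were taken as sorted from the same culture.

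The response of the 44 genes was then compared between GFP-positive and GFP-negative cells with an interaction term. With edgeR and no culture block, 0 of the 44 passed. That fit treats the fractions sorted from the same culture as independent. Beside it, 0.968% of 16226 genes had a more positive response in GFP-positive cells and 1.22% a more negative one. At an unadjusted p under 0.05 there were 5 of the 44 and 2701 of all genes. DESeq2 called 2 of the 44, 1 in each direction. Of all 16226 genes, DESeq2 called 411 with a more positive response and 378 with a more negative one. With the culture as a block, SYT2 had a more negative response in GFP-positive cells, by 1.74 on the log2 scale (adjusted p = 0.000725), and SYT6 a more positive one, by 0.92 (adjusted p = 0.0352). In that fit the background was 3.20% and 4.59%. Without treated GFP-positive replicate 2, SYT2 was also called in the fit without the block, at -2.20. SYT2 stood at 35.8, 32.1 and 21.9 CPM in control and 8.81, 14.8 and 7.50 CPM in treated GFP-negative cells. SYT6 fell in GFP-negative cells from 9.46, 9.48 and 9.55 CPM to 6.43, 6.43 and 4.53 CPM, while its GFP-positive groups overlapped.

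Between the fractions of cultures given DMSO alone, the genes differed in the direction of the sort. In control cultures 23 of 43 genes tested were called higher in GFP-positive than in GFP-negative cells and 1 was called lower, against 7.47% and 15.3% of 15404 genes, and SV2B did not pass the filter on low counts. The median log2 difference was 1.02 for the 43 genes and -0.02 for all genes. SYT4 differed most, with 71.4, 87.3 and 108 CPM in control GFP-negative cells against the 413 to 605 CPM above (2.41 ± 0.21, adjusted p = 1.58e-05). DOC2B (2.02 ± 0.65) and SYN3 (1.89 ± 0.30) came next. The DOC2B difference rested on control GFP-positive replicate 2, without which it was 1.03 and not called (adjusted p = 0.215). Without that library SYT9 passed the 2-fold limit as well, at -1.04. RPH3A was the gene called lower, at 3.32, 4.90 and 4.48 CPM in GFP-negative cells and a difference of -1.24 ± 0.31 (adjusted p = 0.0103). SYT9 was also lower by adjusted p (0.0138), at 8.14, 7.25 and 8.23 CPM in GFP-negative cells and a difference of -0.90 ± 0.24, under the 2-fold limit. SYT2, the neuromuscular sensor, did not differ beyond the spread, at 36.4 ± 3.66 CPM in GFP-positive and 29.9 ± 7.24 CPM in GFP-negative cells (0.18 ± 0.20, adjusted p = 0.50).

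**Figure D3:**
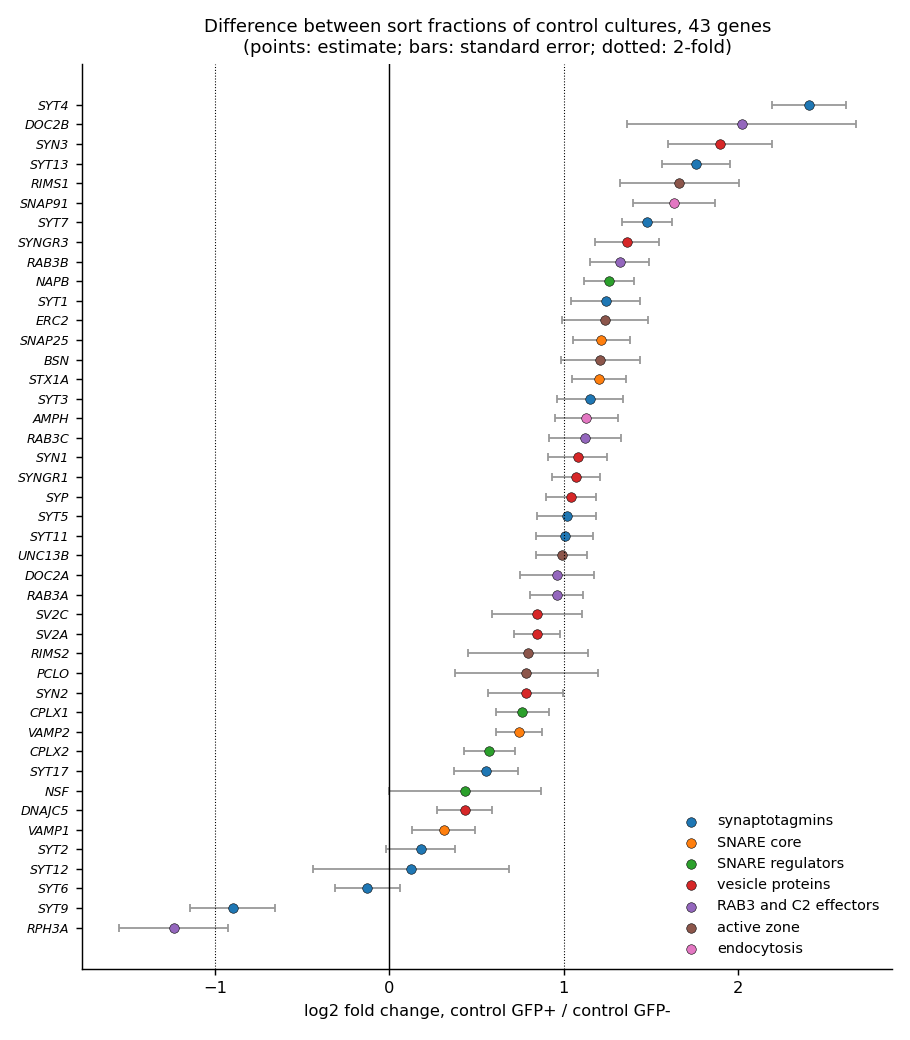
Log2 fold change of control GFP-positive over control GFP-negative cells (horizontal axis) for the 43 genes tested, ordered by value and coloured by class; points are estimates from 3 against 3 libraries and bars are standard errors. Values run from SYT4 at 2.41 to RPH3A at -1.24, and 23 genes pass the 2-fold line on the right together with the adjusted p.

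The summed level of the 44 genes in GFP-negative cells, 3102 ± 140 CPM in control and 3233 ± 89.6 CPM in treated libraries, also overlapped between conditions. The summed level of 8 neuron markers (MAP2, TUBB3, ELAVL3, ELAVL4, STMN2, RBFOX3, DCX and NEFL) ranged from 19346 to 20775 CPM in control and from 9779 to 12518 CPM in treated GFP-positive cells. In GFP-negative cells it ranged from 8282 to 8871 CPM and from 4799 to 5454 CPM. Of these markers, 7 of 8 fell in GFP-positive cells by adjusted p and 3 were called lower, with a median log2 fold change of -0.61. Of 8 motor neuron markers, 7 fell and 6 were called lower, with a median of -1.21 and sums of 1721 to 1924 CPM in control and 513 to 702 CPM in treated GFP-positive cells. Among these is ISL1, the gene whose expression the GFP gate reports, which went from 66.1, 62.3 and 68.6 CPM to 8.01, 15.3 and 12.6 CPM. None of the neuron or motor neuron markers was at 0 in any group. Markers of other cells also moved in GFP-positive libraries: the sum of 6 dividing-cell markers was 84.8 to 117 CPM in control and 40.3 to 44.3 CPM in treated cells, and that of 6 mesenchyme markers 260.2 to 326 CPM and 50.2 to 82.0 CPM. By adjusted p, 5 of 6 dividing-cell, 3 of 3 tested mesenchyme, 2 of 2 tested astroglial and 4 of 7 tested progenitor markers fell, and 2 progenitor markers rose. Sums were 9.30 to 15.8 CPM and 7.50 to 7.81 CPM for 6 astroglial markers, and 1470.2 to 1757 CPM and 988 to 1179 CPM for 8 progenitor markers. For 7 interneuron and sensory markers the sum was 559 to 950.1 CPM in control and 259 to 436 CPM in treated cells. For 3 endothelial markers it was 1.56 to 2.37 CPM and 7.44 to 9.87 CPM. Of the 2 endothelial markers tested, 1 was called higher (2.76 on the log2 scale) and 1 lower (-2.69). For 3 pluripotency markers the sum was 148 to 163 CPM and 44.2 to 53.9 CPM. The defining markers POU5F1 and NANOG (pluripotent cells) and AQP4 (astroglia) were at 0 in control GFP-positive cells. In treated ones POU5F1, LUM (mesenchyme) and HES5 (progenitors) were at 0. Of the 3 pluripotency markers, 2 were at or under 3 counts in both conditions, so their sum is in effect the level of LIN28A alone. The part of these shifts in the changes of the 44 genes was not tested.

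A property that the 44 genes share with the whole table is a relation between response and base composition. Across the 44 genes, the log2 fold change in GFP-positive cells correlated with the GC content of the canonical transcript (Pearson r = -0.53, Spearman rho = -0.64). Across 14659 genes with a GC value the same measures were -0.31 and -0.40. Genes are not independent replicates, and all points come from the same 6 libraries, so these are descriptions. The 13 genes that rose had a median GC content of 43.4% (37.9 to 50.0%), and the 17 that fell had 59.96% (44.7 to 67.1%). With the GC trend of each library removed by a loess fit, 3 of the 44 were called higher and 5 lower, against 11.0% and 8.82% of all genes.

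SYT2 (-3.03), DOC2A (-2.41), RPH3A (-1.87), SYT12 (-1.69) and SYT17 (-1.004) stayed past the limit in that fit, as did SV2B (3.66), SYT13 (1.87) and SYT9 (1.38). SYT3, SYT7 and RAB3A, at -0.87, -0.75 and -0.72, dropped under the 2-fold limit while their adjusted p stayed under 0.05. SYT1, SNAP25, SYT4 and SYT11 kept adjusted p values under 0.05 with smaller estimates of 0.61, 0.73, 0.35 and 0.42. The adjusted p was no longer under 0.05 for 7 genes, namely CPLX1 (-0.18), STX1A (-0.11), SYN1 (-0.04), VAMP1 (-0.37), NAPB (0.11), RAB3B (0.29) and RIMS2 (0.32). It was newly under 0.05 for 6, namely SYP (0.41), CPLX2 (0.44), SYNGR3 (0.81), SYT5 (0.38), RAB3C (-0.51) and SNAP91 (-0.39). What makes the response follow GC content was not tested.

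**Figure D4:**
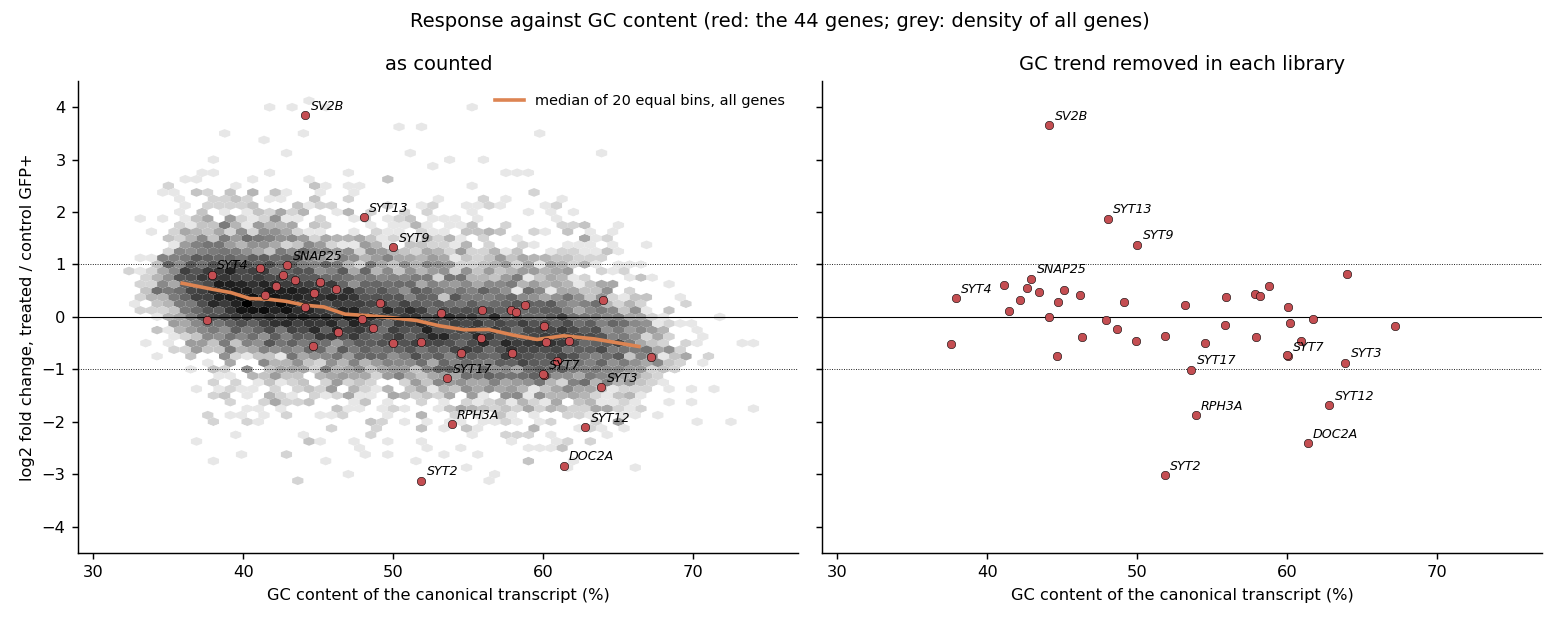
Log2 fold change of treated against control GFP-positive cells (vertical axis) against GC content of the canonical transcript in percent (horizontal axis), as counted (left) and after the GC trend of each library was removed (right). Red points are the 44 genes, and on the left grey shading is the density of all genes on a log scale within the plotted range and the line their median in 20 equal bins; the red points follow its slope on the left, and SYT2, DOC2A, SV2B and SYT13 remain far from 0 on the right.

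Other genes of the release pathway, from lists set beside the 44, were counted in the same GFP-positive comparison. The background for each list is the 12.8% called higher and 11.2% called lower of all 15333 genes tested. Of 45 tested genes of other release machinery, 5 were called higher and 8 lower, with a median log2 fold change of 0.15. Among the decreases were SNCG, at -1.79 ± 0.19, and RAB27B, a secretory GTPase, at -1.67 ± 0.54. The increases were led by RAB3IP, an exchange factor for RAB8 that was found as a RAB3 partner, at 1.62 ± 0.18, by the liprin PPFIA4 at 1.61 ± 0.22 and by RAB27A at 1.54 ± 0.32. Of 33 genes of vesicle endocytosis, 2 were called higher (EPS15 and STON2, at 1.59 and 1.34) and 3 lower (PACSIN1, FCHO1 and SYNRG, at -2.03, -1.95 and -1.64).

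SNAREs that most cells use, for traffic among the ER, Golgi, endosomes and plasma membrane, were called higher in 7 of 32 cases and lower in 1. Their median log2 fold change was 0.40. SEC22B, an ER-to-Golgi SNARE, was at 24.9, 29.1 and 35.3 CPM in control and 106, 97.0 and 123 CPM in treated GFP-positive cells, a log2 fold change of 1.94 ± 0.18. STX3, a plasma membrane syntaxin, and BET1, another ER-to-Golgi SNARE, rose by 1.83 ± 0.16 and 1.73 ± 0.23, while VAMP5 fell by 1.18 with a standard error of 0.32. Of 18 dense-core granule genes, 5 were called higher and 2 lower (median 0.23). PCSK1, a prohormone convertase, went from 2.87, 3.16 and 3.13 CPM to 38.5, 42.3 and 25.8 CPM (3.60 ± 0.23), and PTPRN and CCDC186 rose by 1.65 ± 0.16 and 1.61 ± 0.23. PCSK1N, the inhibitor of that convertase, and PTPRN2 fell, with values of -1.80 ± 0.18 and -1.03 ± 0.16.

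Of 7 vesicular transmitter transporters tested, 1 was called higher and 2 lower. SLC18A3, which loads acetylcholine into vesicles, was at 776, 922 and 674 CPM in control and 164, 230 and 119 CPM in treated GFP-positive cells, a log2 fold change of -2.14 ± 0.19 (adjusted p = 1.68e-11). SLC18A2, the monoamine transporter, fell by 1.53 with a standard error of 0.27, and SLC17A9, which carries nucleotides, rose by 1.04 ± 0.40 from a level near 1 CPM. SLC18A3 is also counted among the motor neuron markers above.

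**Figure D5:**
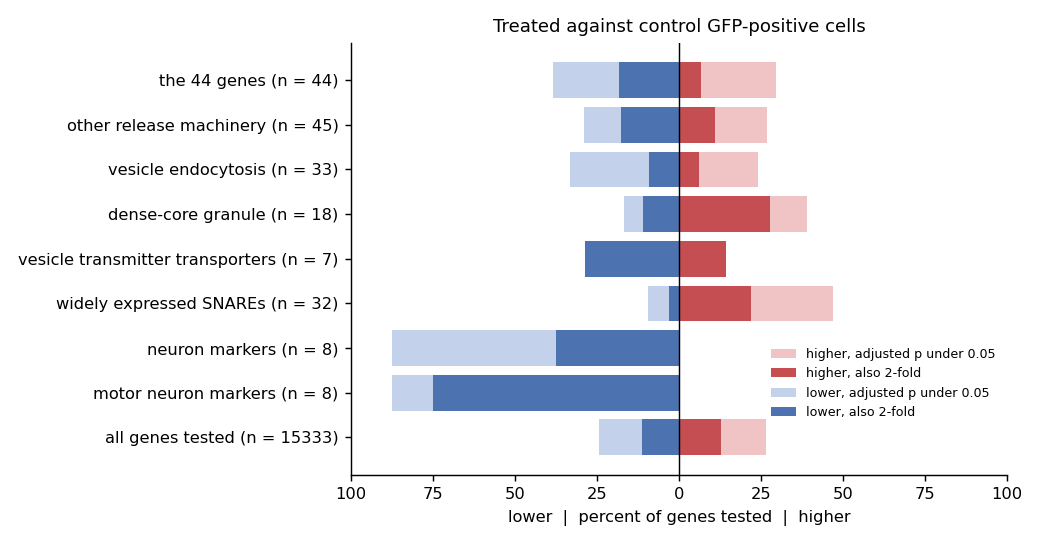
Percent of tested genes of each list that were lower (left of 0, blue) or higher (right of 0, red) in treated than in control GFP-positive cells; pale bars passed the adjusted p, and dark bars within them were also changed at least 2-fold. The 44 genes show 18.2% called lower and 6.82% higher, next to 3.12% and 21.9% for the 32 widely expressed SNAREs and 11.2% and 12.8% for all 15333 genes.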

How the data were processed

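RNA was extracted with Trizol from the sorted cells, and stranded mRNA libraries were sequenced for 12 samples in 4 groups of 3. The authors mapped the reads to hg38 with HISAT2, per the labels and methods, and deposited raw counts per gene symbol. The labels also name featureCounts, and its strand setting is not given in the sources used here. Depth was 23414935 to 38347050 counts per library, and intervals from counts would cover counting error only. Groups were taken from the treatment entry and title of each sample. Titles of treated samples also begin with the word untreated, and the treatment entry was used.

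The deposited counts were tested with edgeR 4.0.16 (R 4.3.3) by the quasi-likelihood test, with TMM scaling, filterByExpr (minimum count 10, minimum total count 15) and Benjamini-Hochberg adjustment over all genes tested. Standard errors were derived from the fold change and its F statistic. Each comparison was fitted on its own libraries, and the interaction on all 12. Printed CPM were scaled over all 12 libraries, so a ratio of CPM can differ slightly from the fitted fold change. The fits were tested on simulated data. Alternatives were RLE size factors, library size alone, DESeq2 1.42.0, other filters, glmTreat, a replicate block and a fit on all 12 libraries. Others were GC and length trends removed (loess in R, span 0.5) and leaving out each library. Positions, lengths and GC content came from GENCODE 44, matched for 25763 of 28278 symbols and all 44 genes.

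The members and lists were chosen with earlier results of these data known. Per-library values were given for 16 genes fixed by name and for the member of each class with the largest called change in each direction. In other comparisons and lists, up to 3 called genes in each direction were named. Some genes and a marker list are not reported here.

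Deviations from the group means over 16226 genes correlated between the sort fractions of the same condition and number in all 6 pairs. The values of r were 0.38, 0.12 and 0.33 in control and 0.20, 0.24 and 0.48 in treated cells. These numbers were taken to pair. Fractions with different numbers were not compared, so the pairing, and with it the culture block, is an assumption. Treated and control libraries with the same number did not all correlate (r = -0.04, 0.16 and 0.20 in GFP-positive cells, -0.03, 0.30 and -0.02 in GFP-negative cells).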

Additional observations from a re-analysis of the deposited data

Results flagged for a closer look

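The response to cis-chlordane was compared between GFP-positive and GFP-negative cells by the test of the interaction. Without a culture block, several genes of the other lists passed, beside 0.968% and 1.22% of 16226 genes. With the culture as a block, 2 of the 44 genes passed, 1 in each direction. In that fit the background was 3.20% with a more positive response in GFP-positive cells and 4.59% with a more negative one. The share of the 44 was not above it. For SYT2 the difference was -1.74 on the log2 scale (adjusted p = 0.000725) and for SYT6 it was 0.918 (adjusted p = 0.0352). Over 21 settings SYT2 ranged from -2.20 to -1.24 and passed in 4, and SYT6 ranged from 0.78 to 1.15 and passed in 2.

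Among the other genes, CADPS2, a priming factor of dense-core vesicles, had a difference of -2.37 (adjusted p = 0.000823), with a log2 fold change of -1.28 in GFP-positive and 1.01 in GFP-negative cells. VGF, a granule protein, had a difference of -1.57 (adjusted p = 0.00431), with 0.81 and 2.29 in the same order. STXBP6, a SNARE-binding protein, had 1.87 (adjusted p = 0.0348), with 0.28 and -1.68. The endocytic adaptor STON2 had 1.24 (adjusted p = 0.0189), with 1.34 and 0.02. What sets these genes apart was not tested.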

How the results depend on the processing

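With a replicate block the counts of the 44 genes called were 3 higher and 8 lower in GFP-positive cells, 3 and 5 in GFP-negative cells and 23 and 1 between the control fractions, as without it. For the interaction the replicate block gave 1 more positive and 1 more negative response where the fit without it gave 0 of each. DESeq2 also gave 1 and 1, beside 411 and 378 of 16226 genes. With no filter on low counts there was 1 more negative response, beside 217 of 22590 genes. Under glmTreat, which tests against the 2-fold limit itself, 2 of the 44 genes were higher and 4 lower in GFP-positive cells. Over all 15333 genes tested there, 920 were higher and 728 lower. In GFP-negative cells 2 of the 44 were higher and 2 lower, beside 446 and 366 of 15513 genes. Between the control fractions 5 were higher and 0 lower in GFP-positive cells, beside 295 and 1408 of 15404 genes. Library size alone gave 5 higher in GFP-positive cells, and removing the GC trend gave 5 lower.

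Leaving out 1 library gave 3 to 6 higher and 7 to 9 lower in GFP-positive cells, and 2 to 5 higher and 4 to 6 lower in GFP-negative cells. It gave 19 to 25 higher and 1 to 2 lower between fractions, and 0 to 1 more negative responses. Of all genes, these fits called 1785 to 2100 higher and 1550 to 1920 lower in GFP-positive cells. The counts were 1046 to 1624 and 1121 to 1636 in GFP-negative cells, and 976 to 1617 and 2155 to 2493 between fractions. For the interaction, 47 to 202 of all genes had a more negative response. Direction turned for these genes in the GFP-positive comparison, none of them called in the fit reported: NSF (-0.000946 with the GC trend removed, -0.0991 to 0.418 with 1 library left out), SYNGR1 (0.188 with the GC trend removed), RAB3C (0.0509 by library size alone, -0.155 to 0.0755 with 1 left out), RIMS1 (0.0783 by library size alone, -0.226 to 0.127) and DOC2B (-0.172 to 1.25, including -0.0178 and -0.140). DOC2B was called without control GFP-positive replicate 2. Among genes not called, direction also turned under some setting for CPLX2, NAPB, RIMS1, STX1A, SYN1 and SYNGR1 in GFP-negative cells and for SYT2 (-0.13 to 0.32) and SYT12 (-0.35 to 0.48) between the control fractions. The cause was not tested. With 3 libraries per group, changes near 2-fold, as in SYT1, SNAP25, SYT7 and RAB3A, could not be placed firmly on either side of the limit, and SV2B rests on few reads in control cells.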
